A study of Onthophagus taurus and Onthophagus nigriventris with 71 samples.

Results

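The comparison described here is that of female head epidermis with small male head epidermis in the horned beetle Onthophagus taurus. Neither kind of head carries horns. It rests on 8 of the 71 arrays in the series, chosen by their titles, 4 of female heads and 4 of small male heads. On each array the dorsal head epidermis of one kind of animal was hybridised, with the other dye, against the dorsal abdominal epidermis of the same kind. Every channel was a pool of tissue from 4 wild-type individuals, reared in the laboratory and dissected as pupae within 24 h of pupation. Females are labelled as covering a range of sizes, and small males as the sneaker morph. A further 4 arrays of large, horned male heads against large male abdomen, and 4 arrays that hybridised large against small male heads directly, were used for reference.

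In Onthophagus beetles, horns are outgrowths of the epidermis that form at the end of larval life. In males of O. taurus, larval nutrition decides whether head horns grow. Well-fed males become large and horned and fight for access to females, whereas poorly fed males stay small and hornless and sneak matings. Female heads of this species are hornless too. In O. taurus, the sex-specific transcription factor doublesex is known to promote head horns in large males and to restrain them in females, and hedgehog signalling is known to restrain them in small males. Females and small males therefore reach a hornless head from different sexes. The series compared the male morphs with each other and males with females, and females beside small males is the comparison of the sexes in which neither head bears horns.

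The values are log2 ratios, 1 for each of 3840 probes on each array, and 0 probe names could be matched to a gene in the table of O. taurus genes at hand. Probes are therefore given by identifier, and several may report the same gene. A positive value most likely means higher in the head than in the abdomen, since the series' design sets each head against its abdomen, but the deposited values do not state their direction. If it ran the other way, all signs below would turn together. A difference between groups can come from the head or from the abdomen of either kind.

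The 8 arrays resembled each other across kinds as closely as within them. Across probes, pairs of female arrays correlated with r of 0.846 to 0.904, pairs of small male arrays with 0.748 to 0.913, and pairs of a female and a small male array with 0.771 to 0.910. Small male replicate 4 stood apart, with a median r of 0.782 to the other 7 arrays, where the other arrays had medians of 0.847 to 0.892. Its closest partner was female replicate 4, at 0.878. The ratios were wider in females, with an SD across probes of 1.001 to 1.17 on single arrays, than in small males, with 0.916 to 1.08, and the ranges overlapped.

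Both kinds of head differed from the abdomen at most probes and largely at the same ones. In female heads 2458 probes passed limma's test at an adjusted p under 0.05, which is 64.0% of those tested, 1393 of them positive (36.3%) and 1065 negative (27.7%). In small male heads 2245 passed (58.5%), 1239 positive (32.3%) and 1006 negative (26.2%). Of these, 2013 passed in both with the same sign, 1132 positive and 881 negative, making up 81.9% of the female list and 89.7% of the small male list. Just 1 probe passed in both with opposite signs, OtL013-B09, named because it was the single exception, with means of 0.31 in female heads and -0.32 in small male heads. The group means of the 2 kinds of head correlated across probes with r = 0.957. For large males the corresponding r was 0.891 with females and 0.901 with small males. These correlations are descriptions, as all arrays share probes and platform.

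The most extreme probes of the hornless head lay at overlapping levels in both kinds. OtP015-B09 was the most positive probe on average, with 5.17, 4.37, 4.37 and 5.20 on the 4 female arrays and 5.08, 5.14, 4.87 and 5.60 on the 4 small male arrays. The ranges overlapped, and female minus small male was -0.39 (95% interval -1.24 to 0.45). OtP008-B09 followed, at 4.50 ± 0.44 in females and 5.08 ± 0.42 in small males, and OtP013-D03 stood at 4.57 ± 0.50 and 4.76 ± 0.16 (SD, n = 4 each). At the negative end, OtP001-H03 was at -5.57, -5.25, -5.92 and -4.86 in females and at -5.30, -5.00, -5.42 and -4.30 in small males. Its difference was -0.40 (95% interval -1.28 to 0.48). OtP007-F12 stood at -5.17 ± 0.45 and -4.80 ± 0.44, and OtL006-A08 at -4.87 ± 0.65 and -5.07 ± 0.47 (SD, n = 4 each). None of the 6 passed the test between the kinds of head, with limma adjusted p of 0.845 to 0.996.

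**Figure D1:**
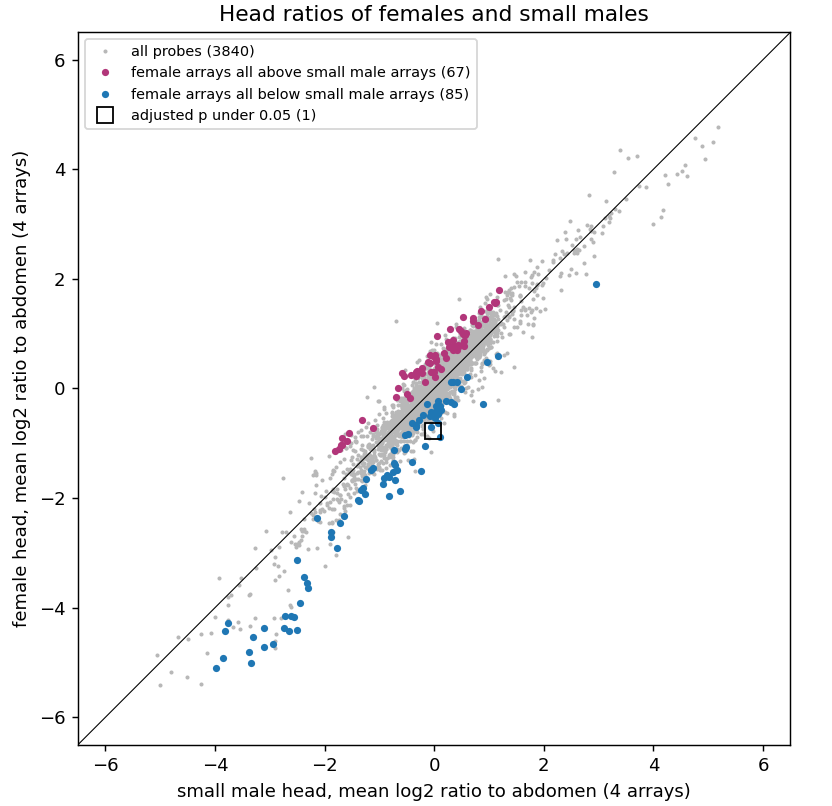
Mean log2 ratio of head to abdomen over 4 female arrays (vertical axis) against that over 4 small male arrays (horizontal axis), 1 point per probe, with the line of equality. Of 3840 probes, 67 have all female arrays above all small male arrays and 85 the reverse, and the 3 probes most negative on average lie close to the line.

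Tested against each other, female and small male heads differed at 1 probe of 3840, or 0.026%, by limma at an adjusted p under 0.05. At an unadjusted p under 0.05 there were 347, where 192 would be expected without any difference. When all arrays of all tissues were given the same spread, the count was 109. That lies below the 192 expected, so it cannot show whether the excess was absent. The count was 136 within the arrays with head in Cy5 and 226 within those with head in Cy3. These subsets hold fewer arrays of each kind, which by itself can lower the count. The called probe, OtP011-A05, was at -0.88, -0.23, -0.93 and -1.04 on the female arrays and at -0.03, 0.21, -0.28 and 0.00 on the small male arrays. Female replicate 2 was the exception among females and lay just above the lowest small male array, so the groups overlapped. The difference was -0.74 ± 0.14 (SE, limma adjusted p = 0.0171), that is, a ratio to abdomen closer to 0 in small males. Large male heads were at -0.23 ± 0.03 (SD, n = 4), nearer to small males. Arrays of the same number deviated together across the kinds of head. The replicate number was therefore also fitted over all tissues, as a fixed factor and as a random block. The random block joined arrays of one kind of animal and one replicate number, so it did not pair females with small males. Either fit called 3 probes, OtP011-A05 with OtL012-A12 and OtP016-G09. With the replicate number fitted on only the 8 head arrays, which pairs them by number, 0 probes were called. The call of OtP011-A05 was lost when only the 8 head arrays were fitted (adjusted p = 0.283), when all arrays were given the same spread (0.347), and when any one of small male arrays 1 and 2 or female arrays 3 and 4 was left out (0.0506 to 0.162).

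For most probes the data bounded the difference. The 95% interval of female minus small male lay within 1 on the log2 scale, a 2-fold change, for 3315 probes (86.3%), and within 0.5 for 1443 (37.6%). These intervals are not adjusted for the number of probes. Their median reach was 0.40 to each side. A single probe, OtL017-E05, had an interval wholly beyond 1, from -2.81 to -1.02. The spread of the true differences across probes was estimated as the SD of the estimates after removing the part due to their standard errors. It was 0.160, and 0 after each array was scaled to one spread. That 0 is a floor, set when the standard errors account for all of the variance or more, and not a measured spread. Female minus large male heads, which shares the female arrays, had a spread of 0.441 and 369 called probes (9.61%), 188 positive (4.9%) and 181 negative (4.71%), and 3059 of its intervals lay within 1. The difference between these comparisons is large minus small male, which passed at 284 probes (7.40%). The count of female minus large male fell to 103 (29 positive, 74 negative) when all arrays were given the same spread, with a spread across probes of 0.324, and to 148 (41 positive, 107 negative) when only its 8 arrays were fitted. Centring each array moved its split to 132 positive and 214 negative.

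At 152 probes (3.96%) the 4 female arrays did not overlap the 4 small male arrays, 67 positive and 85 negative. None of the 152 passed the test (limma, smallest adjusted p 0.0502). With 4 arrays of each kind, some probes separate in this way by chance. The number expected by chance was not worked out, so the count only describes these arrays. Between female and large male heads the same count was 432. Among the 67 positive probes the differences ran from 0.19 to 0.91 (median 0.52), and among the 85 negative ones in size from 0.15 to 1.92 (median 0.65). The negative ones sat lower on the head to abdomen scale, with a median of -1.50 in females and -0.73 in small males, against 0.60 and 0.05 for the positive ones. Large male heads, which took no part in this choice, lay nearer to small males at 42 of the 67 positive probes, and nearer to females at 44 of the 85 negative ones.

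Among the 8 positive probes with the smallest p, OtP005-F01 had 1.18, 1.28, 1.44 and 1.30 in females against 0.57, 0.38, 0.65 and 0.53 in small males, a difference of 0.76 ± 0.18 (SE, limma adjusted p = 0.0682). OtL015-D01 was negative in both heads but less so in females, at -0.64, -0.77, -1.09 and -0.78 against -1.39, -1.28, -1.97 and -1.60. Large males resembled small males there, at -1.79 ± 0.17 (SD, n = 4), and female minus large male passed at 0.97 (limma adjusted p = 1.66e-04). OtP014-B09 followed another order, with 0.88 ± 0.13 in females, 0.35 ± 0.05 in small males and 0.90 ± 0.23 in large males (SD, n = 4 each), so that small males had the low value. OtL015-F05 showed the largest of the 8 differences, 0.91 ± 0.27 (SE), from 0.54 to 1.28 in females and -0.29 to 0.43 in small males, and large males were at -0.37 ± 0.40 (SD, n = 4). The other 4, OtP010-H09, OtL018-E12, OtL018-F03 and OtP008-A10, differed by 0.51 to 0.78, with large male means between those of the hornless heads.

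The 8 negative probes with the smallest p fell into sets by where large males lay. At OtL012-A12 the female arrays read 0.01, 0.08, -0.39 and -0.85 and the small male arrays 1.36, 0.95, 1.14 and 0.10, with large males between at 0.44 ± 0.23 (SD, n = 4). Small male replicate 4 was the low array of its group and almost met the females, and the difference was -1.17 ± 0.25 (SE, limma adjusted p = 0.0502). OtP016-G09 had -1.26, -1.64, -1.70 and -1.45 in females and -0.44, -0.27, 0.35 and -0.58 in small males, a difference of -1.28 ± 0.28 (SE, limma adjusted p = 0.0582). Large males, at -0.31 ± 0.55 (SD, n = 4), matched small males, and female minus large male passed at -1.20 (limma adjusted p = 0.00331), so that females stood alone at this probe. OtL017-H12 was the only strongly positive one, at 1.91 ± 0.57 in females, 2.94 ± 0.24 in small males and 2.66 ± 0.48 in large males (SD, n = 4 each).

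The other 5 were strongly negative in all 3 kinds of head, and at 4 of them large males lay nearer to females, with OtP001-G03 the exception. OtL017-E05 read -4.30, -4.39, -4.55 and -4.41 in female heads and -3.18, -1.71, -2.85 and -2.24 in small male heads. The female arrays were tightly grouped, the small male arrays were spread more widely, and large males were at -4.67 ± 0.69 (SD, n = 4). Female minus small male was -1.92 ± 0.44 (SE, limma adjusted p = 0.0682), and female minus large male 0.26. OtL013-D02 read -4.37, -4.68, -4.62 and -4.02 against -3.21, -1.82, -3.29 and -2.27, with large males at -4.58 ± 0.43 (SD, n = 4). Small male replicates 2 and 4 were the least negative at both probes. OtP002-A11 followed the same order of arrays, with -1.67 and -2.00 on small male replicates 2 and 4, -3.78 and -3.48 on replicates 1 and 3, and -4.45 to -3.90 in females. OtL006-H08 stood at -3.91 ± 0.40 in females, -2.45 ± 0.58 in small males and -3.50 ± 0.60 in large males, and OtP001-G03 at -3.43 ± 0.42, -2.37 ± 0.19 and -2.87 ± 0.16 (SD, n = 4 each). When only the 12 head arrays of females and both male morphs were fitted, 5 probes passed, all negative, among them OtL017-E05, OtL013-D02 and OtP001-G03, each with a limma adjusted p of 0.0481, while OtP011-A05 did not (0.185).

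**Figure D2:**
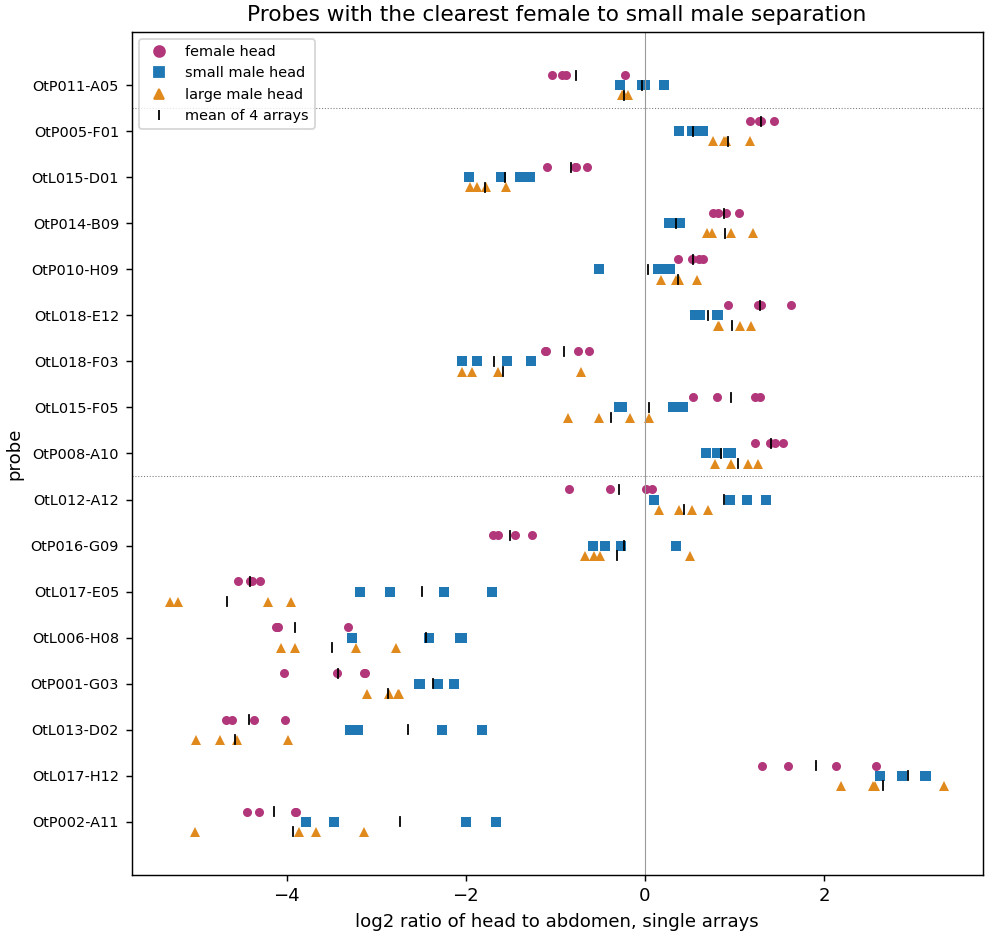
Log2 ratio of head to abdomen on single arrays for the called probe (top), the 8 positive and the 8 negative probes named by smallest p, with females as circles, small males as squares, large males as triangles and a bar at each mean of 4 arrays. At OtL017-E05 and OtL013-D02 the large male arrays lie with the female arrays and the small male arrays stand to the right.

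The direct arrays allowed the position of females to be read at probes chosen without any of the 8 head arrays. On these 4 arrays, 9 probes (0.234%) separated large from small male heads at a limma adjusted p under 0.05. All 9 were positive, a sign that goes with large minus small male, since the direct values correlated across probes with large minus small male on the arrays against abdomen (r = 0.793). Whether the direct arrays used the same RNA pools is not stated. At all 9, females lay nearer to small males than to large males, as they did at 2437 of all 3840 probes. OtL002-E05, with a direct value of 4.43 ± 0.20 (SE), read 0.18, 0.67, -0.14 and 0.37 in females, 0.28, 0.66, 0.31 and 1.41 in small males and 5.03, 4.52, 5.22 and 4.92 in large males. Females and small males overlapped there and large males stood far above both, and female minus small male was -0.39 (95% interval -0.84 to 0.05). OtL006-A04 and OtL002-B04 gave similar readings on most arrays, with means of -0.09 and 0.01 in females, -0.27 and -0.24 in small males and 3.30 and 3.12 in large males. Their female minus small male values were 0.17 (95% interval -0.47 to 0.82) and 0.25 (-0.38 to 0.89).

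The other 6 of the 9 divided by which hornless head was farther from the large male. OtP003-H05 read -3.41, -3.05, -3.29 and -2.74 in females, -2.72, -2.41, -2.56 and -2.33 in small males and -0.39, -0.79, -0.60 and -0.52 in large males. The 3 kinds did not overlap, and female minus small male was -0.62 ± 0.18 (SE, limma unadjusted p = 0.00125, adjusted p = 0.132). OtP005-F04 showed the same order, with -1.68 ± 0.24 in females, -0.71 ± 0.35 in small males and 0.59 ± 0.74 in large males (SD, n = 4 each), and a difference of -0.96 ± 0.26 (SE, limma adjusted p = 0.114). Small males were thus intermediate at these 2 probes. At OtP010-D09, OtP013-C07 and OtP018-C08 female minus small male was 0.47, 0.28 and 0.49, with adjusted p of 0.588 to 0.874 in limma. OtP015-C03 varied most among arrays, from -0.37 to 2.42 in females and 0.50 to 2.90 in small males, with replicate 4 the highest in both groups.

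A wider list from the direct arrays, at an unadjusted p under 0.05 and a size of at least 1, showed unequal positions on its 2 sides. At the 95 probes positive on the direct arrays, female minus small male had a median of 0.10, with 57 positive and 38 negative, and 0 passed the test between the hornless heads. Female minus large male had a median of -1.37 at the same probes, 63 passed, all negative, and females were nearer to small males at 90 of the 95, against the same 2437 of 3840. Over all 3840 probes the medians were 0.01 and 0.04, and 0.026% and 9.61% passed. The median ratios to abdomen at these probes were 0.39 in females and 0.27 in small males against 1.77 in large males.

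At the 61 probes negative on the direct arrays, female minus small male had a median of -0.75, with 48 of 61 negative and 30 of them at an unadjusted p under 0.05, and 0 passed after adjustment. The arrays did not overlap at 17 of the 61 in the negative direction. Over all 3840 probes, 172 were negative at an unadjusted p under 0.05 and 85 did not overlap in that direction. Female minus large male had a median of 0.26 and passed at 12 of the 61, all positive, against 188 positive calls (4.9%) among all 3840 probes. Females were nearer to large than to small males at 38 of the 61, against 1403 of all 3840 probes. The median ratios to abdomen were -3.81 in females, -3.99 in large males and -2.65 in small males. Exceptions lay on the other side. At OtP020-G02 and OtP003-F11, named after their values were seen, female minus small male was 0.53 and 0.37 and female minus large male 2.58 and 2.30, so that large males stood alone.

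**Figure D3:**
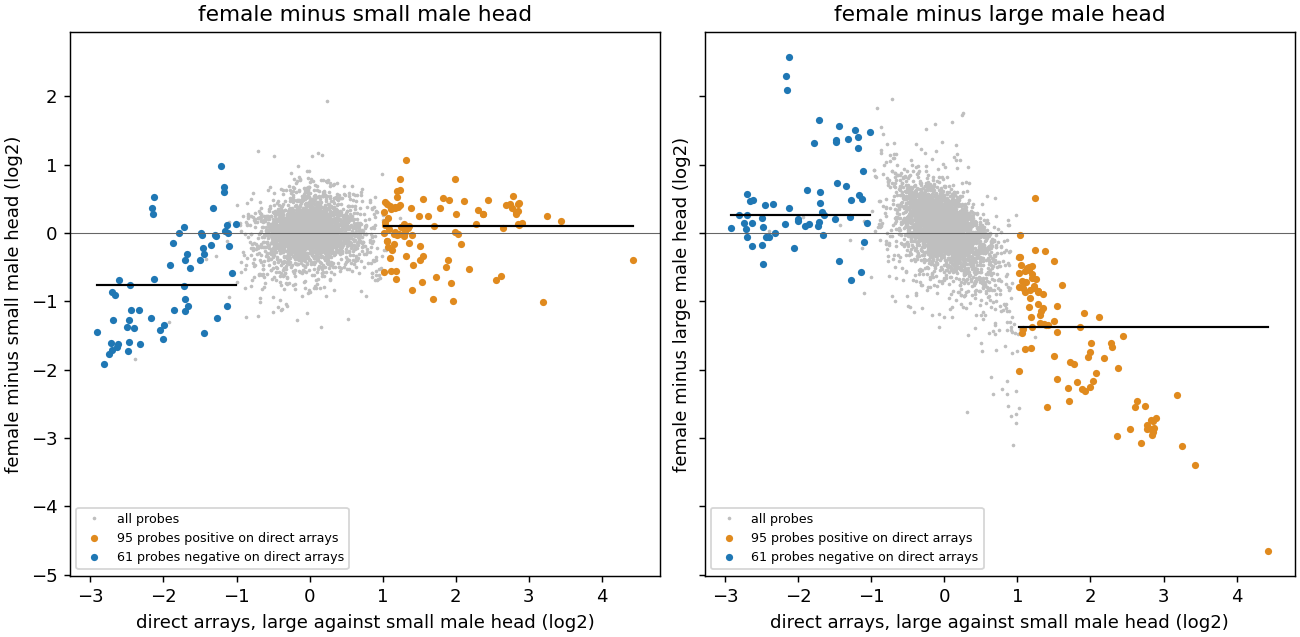
Female minus small male (left) and female minus large male (right) heads, in log2 units, against the large over small male value of the direct arrays, 1 point per probe, with the 95 positive and 61 negative probes of the wider list coloured and horizontal lines at their medians. The positive probes centre on 0.10 on the left and -1.37 on the right, and the negative ones on -0.75 on the left and 0.26 on the right.

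The shift at these 61 probes was uneven among small male arrays. Their median ratio to abdomen was -3.38, -1.83, -3.28 and -2.19 on small male replicates 1 to 4, and -4.05, -3.63, -4.10 and -3.27 on female replicates 1 to 4. Small male replicates 2 and 4, the arrays with head RNA in Cy5, lay above all females, whereas replicates 1 and 3, with head RNA in Cy3, overlapped them. The same-numbered female arrays had the same dye orientation, and the part of dye and of single arrays in the shift was not tested beyond the values that follow. Within the arrays with head in Cy5 the median difference was -1.07, and within those with head in Cy3 it was -0.48. Without small male replicate 2 it was -0.45, and with arrays scaled to one spread it was -0.43, both at the same 61 probes. The scaling took in the arrays of all tissues, so rescaling alone can change the size of a head difference. Leaving out direct replicate 4 redraws the list, and the median over that other list was -0.30. Over all probes, the differences from the 2 dye orientations, which share no array, correlated with r = 0.289, and those of female minus large male with r = 0.542.

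The same region of the scale stood out when probes were sorted by large male heads alone. Of the 68 probes below -3 in large male heads, 59 had a negative female minus small male value, with a median of -0.65 (quartiles -1.32 and -0.15). There were 31 at an unadjusted p under 0.05, all negative, and 19 with arrays that did not overlap, against 172 and 85 of all 3840 probes in that direction. Of the 61 probes above, 44 were among these 68, so the lists are largely the same probes. Medians were -4.18 in females, -4.18 in large males and -3.10 in small males. In the next bin, from -3 to -1, the median difference was -0.11 over 338 probes. It was 0.02 over the 3130 probes between -1 and 1, 0.10 over the 221 between 1 and 3, and -0.05 over the 83 above 3. With arrays scaled to one spread the median of the lowest bin was -0.22, with 44 of 68 negative. Scaling moved the median of all probes from 0.01 to -0.01.

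**Figure D4:**
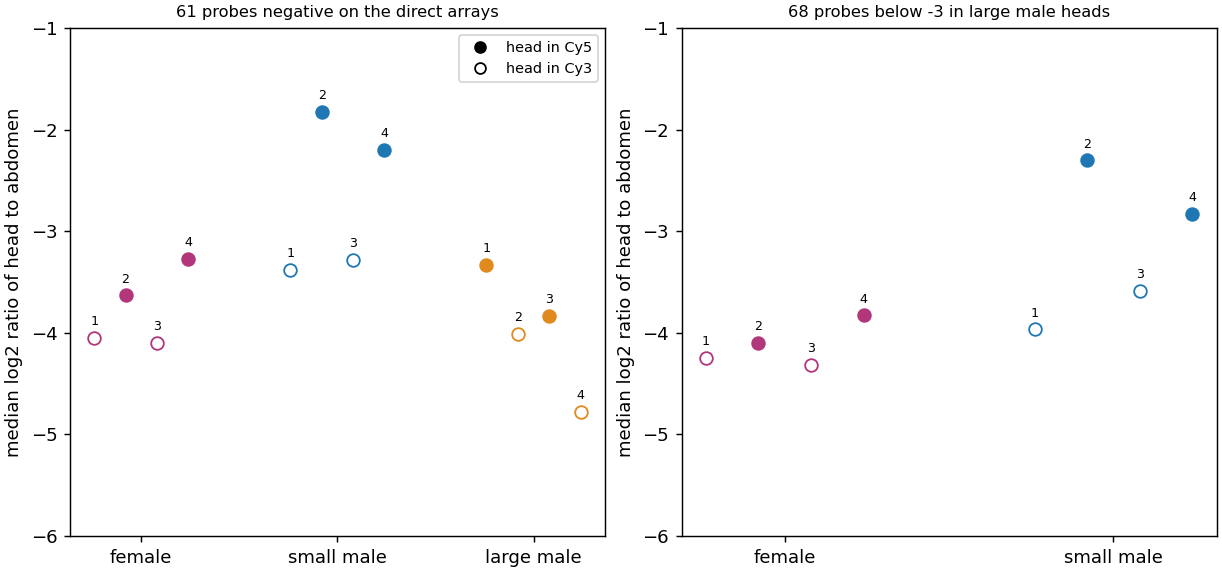
Median log2 ratio of head to abdomen on each array, numbered by replicate, over the 61 probes negative on the direct arrays (left, with large males) and over the 68 probes below -3 in large male heads (right). Filled points are arrays with head RNA in Cy5 and open points arrays with head RNA in Cy3, and small male replicates 2 and 4 are the highest in both panels.

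Whether the female to small male difference belonged to the head was asked by comparing it with thorax and legs, which were measured against abdomen in the same kinds of animals. A direct test of the difference between tissues passed at 0 probes (0%), with a smallest adjusted p of 0.975 in the limma F test. At an unadjusted p under 0.05 there were 158, fewer than the 192 expected without any difference. That count depended on the fit. It ran from 113 with arrays scaled to one spread to 301 with array weights, and was 276 without small male head replicate 4. The smallest p of that test belonged to OtP014-B09, where female minus small male was 0.54 ± 0.13 for head, 0.46 ± 0.13 for thorax and -0.23 ± 0.13 for legs (SE). OtP002-H05 was at -0.54, 0.53 and 0.17, and OtP019-H01 at 0.02, 0.31 and -1.22 in head, thorax and legs. At OtL017-E05, chosen by its head values, the contrast was -1.92 ± 0.44 for head, 0.08 ± 0.44 for thorax and 0.02 ± 0.44 for legs (SE). Its limma F test gave an unadjusted p of 0.00337 and an adjusted p of 0.9999. Over the 61 probes negative on the direct arrays the medians were -0.75 for head, -0.02 for thorax and 0.02 for legs. Over the 68 probes below -3 in large male heads they were -0.65, -0.12 and -0.06.

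Averaged over head, thorax and legs, with 12 arrays of each kind, the contrast passed at 167 probes (4.35%) by limma at an adjusted p under 0.05, with 70 above 0 (1.82%) and 97 below (2.53%). That fit treated the 12 arrays of a kind as independent. Head, thorax and legs arrays share replicate numbers, and what a shared number marks is not labelled. If it marks the same animals, these p-values may be too small. With arrays of one kind of animal and one replicate number treated as a random block, 77 passed, all among the 167. With arrays scaled to one spread 4 passed, all negative. A difference in the abdomen would enter the 3 tissues alike and cannot be told apart from one shared by head, thorax and legs. The median head contrast was 0.35 at the 70 positive probes and -0.58 at the 97 negative ones, beside 0.45 and -0.59 in the thorax and 0.43 and -0.57 in the legs. The 167 probes were chosen on the mean of these 3 tissues, so medians of the same sign in them follow from the choice. In the brain, which took no part in the choice and was measured against ganglia and not abdomen, the medians were -0.07 and 0.08. The choice alone can set the brain apart from the other tissues.

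The called probe of the head led this mean too, into which its head contrast enters. OtP011-A05 had a mean contrast of -0.63, and females stood at -0.77, -0.78 and -0.71 in head, thorax and legs, against -0.03, -0.17 and -0.17 in small males. In thorax and legs no female array overlapped a small male array, with females from -0.90 to -0.52 and small males from -0.29 to -0.02. OtP016-G09 had a mean contrast of -1.12, from -1.51, -1.50 and -1.10 in females and -0.24, -0.52 and 0.01 in small males. Its brain contrast, which took no part in the choice, was -0.31, the weakest of the 4 tissues. OtP013-B08 was at -1.40, -1.38 and -0.69 in females and -0.72, -0.32 and 0.18 in small males. All 3 passed for the mean with limma adjusted p of 0.00153 or less, and kept the call with the random block. With arrays scaled to one spread OtP013-B08 lost it (0.0888).

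**Figure D5:**
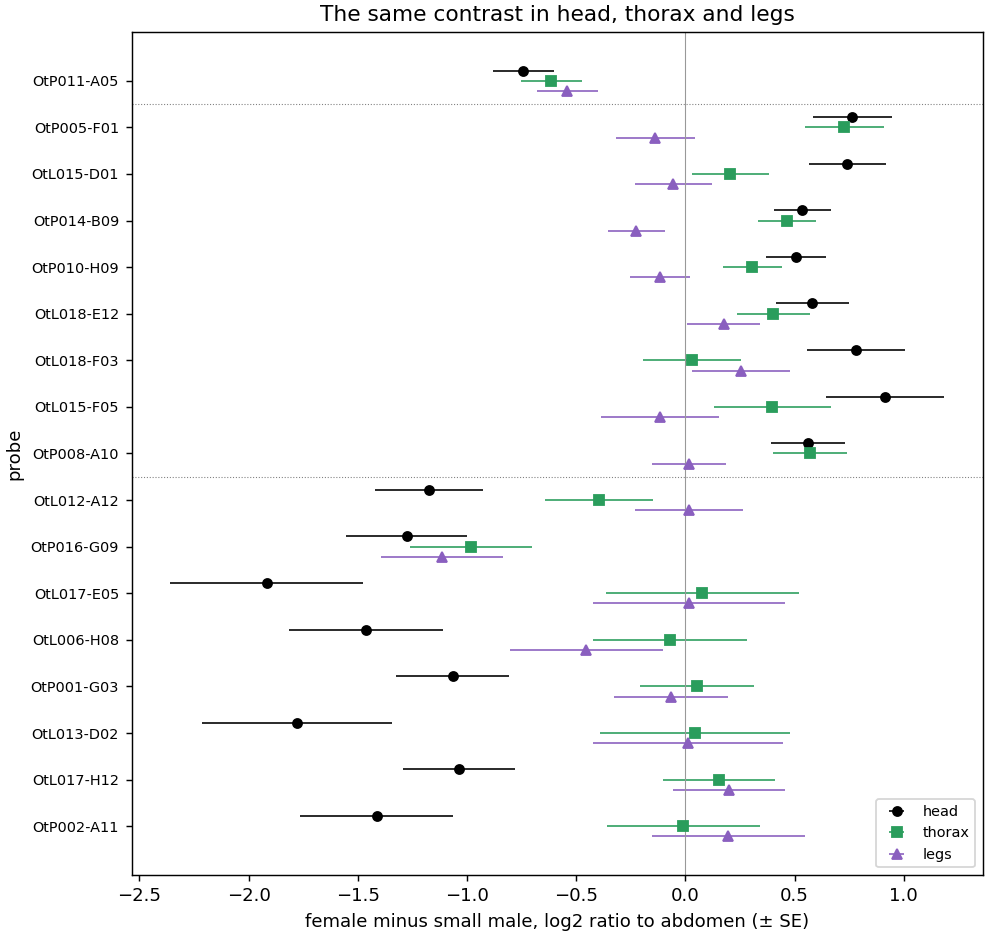
Female minus small male log2 ratio to abdomen, with its SE, in head (circles), thorax (squares) and legs (triangles) for the probes of the plot of single arrays. OtP011-A05 and OtP016-G09 have similar values in the 3 tissues, whereas OtL017-E05, OtL013-D02 and OtP002-A11 are away from 0 in the head and near 0 in thorax and legs. All were chosen by their head values, which favours a larger contrast in the head, and the test between tissues passed at 0 probes.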

How the data were processed

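The authors deposited normalised log ratios of both dyes. They were read as log2, the base used by limma, which the submitters' processing notes list. Its version and the background and within-array steps were not given in the sources used here. The 16 pairs of the 8 head arrays with opposite dye orientation correlated with r of 0.774 to 0.904, so the deposited ratios had already been turned one way and were not turned again. About 99.5% or more of values had more than 6 significant digits on arrays with head in Cy5 and 0% on those with head in Cy3, which shows separate handling of the orientations. There were 0 missing values.

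Tests used limma 3.58.1 in R 4.3.3 on the 48 arrays of head, thorax, legs or brain in O. taurus (12 groups of 4, group means and a dye term), with Benjamini-Hochberg adjustment over 3840 probes and a threshold of 0.05. The 4 direct arrays were fitted alone with a dye term. The script was tested on simulated data. Named probes are those called, the 8 with the smallest p in each direction among probes whose groups do not overlap, the 3 most positive and 3 most negative of both heads, the calls of the direct arrays, and the 3 with the smallest p in each tissue test. The members and lists were chosen with earlier results of these data known. Labels share replicate numbers. Deviations of same-numbered female and small male head arrays from their group means correlated with r of 0.265, 0.297, 0.345 and 0.595. Alternative fits therefore used the replicate number, a choice made from the data and not from the labels. The main fit, which gave the SEs and intervals above, did not pair arrays. Same-numbered arrays share their dye orientation. With the dye effect removed, which leaves 2 distinct values, r was 0.252 and 0.498. Of the 12 pairs with different numbers, 2 exceeded 0.1 (range -0.338 to 0.220). Whether pools came from separate rearings is not labelled, and a p-value here reflects only pool-to-pool spread, which may be technical. The number of arrays limits the precision. Alternatives were centring, scaling, no dye term, fewer arrays, array weights, replicate blocks and leaving out each array. Scaling set the median absolute deviation of each of the 48 arrays, brain included, to their mean. It can therefore change the size of a head difference, and the counts, by rescaling alone.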

Additional observations from a re-analysis of the deposited data

Results flagged for a closer look

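Over the 80 groups of 4 arrays that were checked, 2 had an array far from the other 3, where chance would give about 1 in 20. OtL006-H08 was at -3.31 on female head replicate 2 and between -4.12 and -4.10 on the other female arrays. The median of small male head replicate 2 over all probes was 0.0751, against 0.0605 to 0.0625 on the other small male arrays.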

How the results depend on the processing

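The count of probes differing between female and small male heads, 1 as reported, stayed between 0 and 6 in all alternatives run. It was 3 with centred arrays, with array weights and with either replicate block, and 0 with scaled arrays, with only the 8 arrays, with those 8 and the replicate block, within either dye orientation, and without replicate 4 of both kinds. It was 5 with the 12 head arrays and 0 to 6 with single arrays left out (0 without female 3, female 4 or small male 1, 3 without female 1, 5 without female 2, 6 without small male 4). The fits beyond the plan (the block on 8 arrays, 12 arrays, both replicates 4 left out) and the bins by large male level were chosen after seeing the data. Female minus large male gave 103 with scaled arrays and 148 with only its 8 arrays. The mean over tissues gave 4 with scaled arrays, 77 with the random replicate block, and 59 to 251 with single arrays left out, lowest without female head replicate 1, highest without small male leg replicate 1, and 111, 74, 71, 98 and 78 without female thorax 1, small male thorax 1, female legs 3, female legs 4 and small male legs 3. The test between tissues gave 0 at the adjusted threshold throughout, while its count at an unadjusted p under 0.05 ran from 113 to 301. The counts against abdomen stayed within 1.5 times. The spread of 0.160 became 0, its floor, with scaled arrays, 0.235 with the block on 8 arrays, and 0.130 to 0.203 with single arrays left out. The median at the 9 direct calls, 0.17, was -0.0279 with the wider list and -1.27 to 0.31 with single arrays left out, lowest without direct replicate 1, when other probes are called. For the positive direct list, 95 probes as reported, the median ran from -0.0184 (without direct replicate 2) to 0.19. For the negative list, 61 probes as reported, it ran from -0.96 to -0.30. Leaving out a direct array redraws both lists, so those values belong to other sets of probes. In the bin below -3 it ran from -0.80 to -0.45 with single arrays left out and was -0.22 with scaled arrays. No call was made without direct replicate 3. Reversed signs concerned uncalled values only. OtP001-H03 and OtP007-F12 were at 0.10 and 0.11 with scaled arrays. OtL006-A04 was at -0.0786 without small male replicate 4 and at up to 0.402 without small male replicate 2. Within arrays with head in Cy3, OtP013-D03 was at 0.24, OtL006-A08 at -0.54 and OtP018-C08 at -0.0521, and OtL006-A08 was at -0.11 without both replicates 4. OtP019-H01, at 0.02, was at -0.0136 with centring, -0.19 within head in Cy5 and -0.20 to 0.24 with single arrays left out.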
